A study of Mus musculus with 24 samples.

Results

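The heat shock chaperone genes are the set Hspa1a, Hspa1b, Hspa8, Hsph1, Dnajb1, Hsp90aa1, Hsp90ab1, Hspd1, Hspe1 and Hspb1. They were chosen by name, as the array probes that are not controls and carry 1 of these 10 gene symbols. A total of 9 of the 10 genes had a probe under their own symbol, with 14 probes in all, out of 30342 named genes and 39429 probes. No probe carried the symbol Hspa1b, but the single Hspa1a probe lists transcripts of both Hspa1a and Hspa1b, so the pair was read as 1.

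RNA came from DA1-3B, a mouse leukaemia line from the C3H/eOuJ strain that carries the Bcr-Abl fusion oncogene. All 24 samples were transfected with a plasmid, in 6 groups of 4, and the control was the void plasmid (VOID). The other 5 groups received p65 (RelA), a DNA-binding member of the NF-kB family. They were given the full-length protein (WT), the uncleavable mutant D361E, the N-terminal piece p1-361 alone, the C-terminal piece p363-549 alone, or the pieces in combination (both fragments). The treatment text and the sample names differ by 1 residue in where the C-terminal fragment begins. The design asks which genes the full-length protein, the mutant and the fragments regulate, and the additivity question is whether both fragments together differ from the sum of each alone. The labels do not say how much of each protein the cells made, how many cells took up a plasmid, or whether the 4 samples of a group were separate cultures, so p-values measure only the spread between these samples.

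Molecular chaperones bind unfolded proteins and help them to fold, to assemble or to be degraded. In the cytosol Hsp70 works in cycles with a J-domain partner that delivers the client and an exchange factor that resets it, and passes some clients, kinases such as Bcr-Abl among them, to Hsp90. In mitochondria the Hsp60 and Hsp10 chaperonin folds imported proteins. When cells are stressed, heat shock factor 1 (Hsf1) binds heat shock elements, inverted repeats of the letters GAA and TTC, and raises transcription of most of these genes, while Hspa8 and Hsp90ab1 are made at a high level without stress.

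Probe sequences from the array files were compared between Hspa1a and Hspa8. The Hspa1a probe (build mm9, chr17:35107117-35107176, minus strand) begins at base 1925 of its transcript. A Hspa8 probe from the related stretch begins at base 1812 of the Hspa8 transcript and spans chr9:40612755-40613050 (plus strand) on mm9, 296 bases for a probe of 60, so it crosses an intron. Capitals mark the longest run of letters that the Hspa1a probe shares with any of the 3 Hspa8 probes.
Hspa1a: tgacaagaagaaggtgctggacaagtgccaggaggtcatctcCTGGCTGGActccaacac
Hspa8: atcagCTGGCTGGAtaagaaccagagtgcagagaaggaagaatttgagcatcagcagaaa
That run is 9 bases long, out of probes of 60 bases. The probes were compared with each other and not with whole transcripts, so the run does not show which transcripts a probe can read.

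Promoter windows of RefSeq (GRCm38.p6), which run from 250 bases before to 50 after a start site, were held for 7 of the 10 genes; Hspa8, Hsp90aa1 and Hsp90ab1 had no entry. The windows were searched on both strands for the 2-unit element, GAANNTTC or TTCNNGAA, and for the 3-unit element, GAANNTTCNNGAA or TTCNNGAANNTTC, which contains the former. A 2-unit match was found in 6 of these 7 genes, against 15.1% of all 32851 promoters. A 3-unit match was found in Hspd1, Hspe1 and Hsph1, against 0.603% of all promoters. These genes were counted by a match in any of their windows, 10 in all, while the shares are over single windows, so the 2 are not alike. Capitals mark the matched letters in the stretches below, which are shown because they differ in the number of units: the 150 bases before the start of Hspa1a (chr17:34972157-34972306, minus strand) and of Hspb1 (chr5:135887769-135887918, plus strand), and 30 bases before the start of Hspe1 (chr1:55088053-55088082, plus strand) and of Hsph1 (chr5:149636351-149636380, minus strand).
Hspa1a: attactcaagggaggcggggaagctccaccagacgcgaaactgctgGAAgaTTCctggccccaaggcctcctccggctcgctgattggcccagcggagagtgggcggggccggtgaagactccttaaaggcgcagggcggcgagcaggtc
Hspb1: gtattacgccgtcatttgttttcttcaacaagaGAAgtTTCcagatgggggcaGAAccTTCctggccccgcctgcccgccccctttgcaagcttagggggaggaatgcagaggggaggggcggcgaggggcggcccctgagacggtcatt
Hspe1: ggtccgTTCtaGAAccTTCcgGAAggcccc
Hsph1: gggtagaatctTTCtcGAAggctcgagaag
The Hspe1 stretch holds 2 overlapping 3-unit matches in 1 run, from position -89 to -72 relative to the Hspe1 start. Hspe1 and Hspd1 are transcribed away from each other, and the same run lies at positions -144 to -127 of 1 of the Hspd1 starts, since these windows share 285 of 300 bases. The Hspa1a and Hspa1b windows differ in 4 of 300 bases and hold the same single 2-unit match, at positions -104 to -97. Hspb1 holds a pair of 2-unit matches, at -117 to -110 and -97 to -90, and Hsph1 has a 2-unit match at -54 to -47 with its 3-unit match after the start, at 16 to 28. Dnajb1 had no match in its windows. A match is a description of these letters and does not show that a factor binds.

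**Figure D1:**
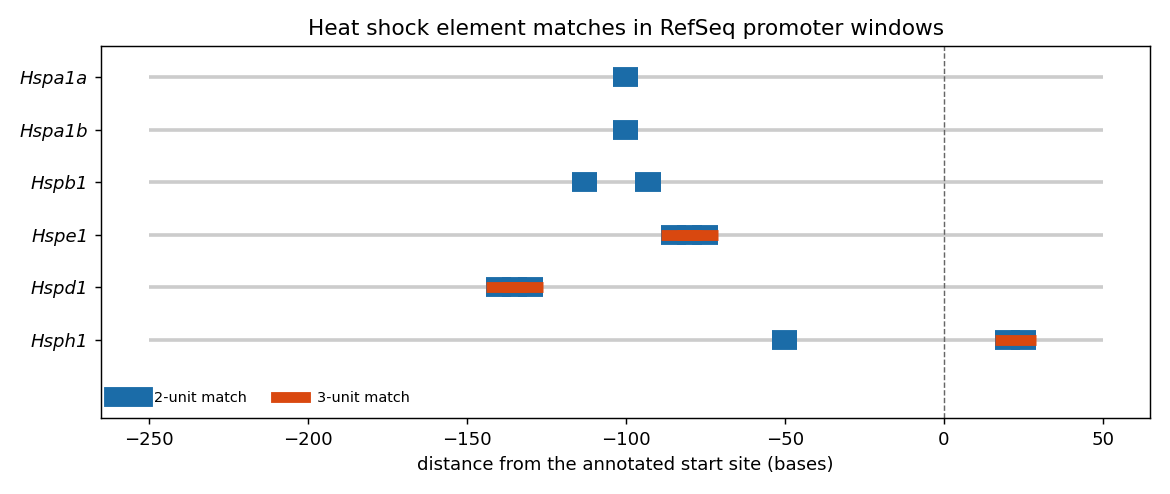
Positions of heat shock element matches (thick marks) in the promoter windows of 6 genes, in bases from the annotated start site (dashed line); for Hspd1 and Hsph1 1 of several start sites is drawn. The 3-unit matches lie in Hspe1, Hspd1 and Hsph1, upstream of the start in the first pair and 16 bases after it in Hsph1.

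The arrays are 1-colour Agilent arrays with 4 to a slide, and between 49.4% and 55.5% of spots were well above background on each. Levels are given as log2 of the processed signal minus the 75th percentile of the same array, which ran from 635.8 to 1214, so 0 is the level of that percentile. The number of arrays limits the precision. Markers of white blood cells were above background on all 24 arrays for 5 of 5 genes, those of epithelial cells on 0 arrays for 4 of 4 and those of B cells on 0 arrays for 3 of 3, while 3 of 4 T cell markers (Cd3e, Cd3d and Cd4) and 2 of 5 macrophage markers (Csf1r and Cd68) were above it on all. Above it on all were also 2 of 5 erythroid markers (Hbb-bt and Hba-a1), 1 of 5 of mast cells and basophils (Gata2) and 0 of 4 of fibroblasts. In 21 of the 24 arrays the expression pattern was closest to that of the array's own group in the other samples. The exceptions were the arrays labelled replicate 4 of p1-361, of p363-549 and of both fragments: over 200 genes, Pearson r was 0.18 with its own group and 0.94 with p363-549 for the first, -0.50 and 0.97 (with both fragments) for the second, and -0.11 and 0.90 (with p1-361) for the third. These correlations are across genes, which are not independent replicates. Groups were kept as labelled, and results on fragments are also given without these 3 arrays.

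Inducible Hsp70 and the small heat shock protein were not detected. The Hspa1a probe was well above background on 0 of 24 arrays, with processed signals of 4.59 to 9.94, and the Hspb1 probe (chr5:136365366-136365425 on mm9, plus strand) on 0 of 24, with 3.36 to 7.71. On every array the lowest signal of any probe that was well above background lay higher, between 16.5 and 35.3. Both genes were therefore below what these arrays measure in all 6 groups, whether p65 was added or not, and no fold is given for them. Of 8 other small heat shock protein genes 3 were bright enough to be tested, and 0 of these passed in any comparison, with 0 at an unadjusted p under 0.05 in the 5 comparisons with VOID.

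The other 7 genes, with 12 probes, were well above background on all 24 arrays. All 7 thus passed the filter on dim probes, which asks for 4 arrays of 1 group, in each of the 6 groups. Where a gene had several probes the brightest stood for it in the tests.

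Among the Hsp70 machinery, Hspa8, the constitutive Hsp70, was read by 3 probes. At the probe from base 2044 (chr9:40613223-40613282 on mm9), the VOID levels were 6.23, 6.13, 6.78 and 6.55 and the WT levels 6.16, 6.02, 6.04 and 6.15. The p363-549 levels were 6.61, 6.67, 6.61 and 6.60, so the C-terminal fragment lay above WT on every array and inside the VOID range. The p1-361 levels were 6.14, 6.44, 6.39 and 6.02, those of D361E 6.61, 6.65, 6.18 and 6.09, and those of both fragments 6.09, 5.86, 6.68 and 5.98. The last 3 groups overlap both WT and VOID. The probe from base 1812 had lower levels of 5.79 to 6.05 in WT and 5.88 to 6.51 in p363-549, which overlap, and the probe from base 730 had 4.34 to 5.23 and 4.52 to 5.27.

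Hsph1, an exchange factor for Hsp70, had the widest range of the 7 at its brighter probe (base 3094, chr5:150419744-150419803 on mm9). Levels ran from 0.95 to 2.59 over the 24 arrays, a 3.12-fold range of signal. The VOID levels were 2.58, 2.11, 1.32 and 2.59, those of WT 1.84, 1.46, 1.58 and 2.18, and those of D361E 1.60, 1.58, 1.26 and 2.17. The single fragments had 1.65, 1.45, 1.08 and 1.75 for p1-361 and 1.81, 1.59, 1.20 and 2.07 for p363-549. With both fragments the levels were 2.56, 2.58, 0.95 and 2.22, so that 3 arrays were above every single-fragment array and 1 was the lowest of all 24. In every group but WT the lowest array was replicate 3.

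Dnajb1, the J-domain partner that delivers clients to Hsp70, was read by 1 probe (base 2121, chr8:86135660-86135719 on mm9). Its levels with both fragments were 4.24, 4.18, 4.11 and 4.31, against 3.81, 3.85, 3.83 and 4.02 with p1-361 and 3.60, 3.94, 3.95 and 4.06 with p363-549. All 4 arrays with both fragments were above all 8 with a single fragment, the lowest at 4.11 against a highest of 4.06. Among the 7 genes this held for 1, against 0.691% of all genes, and replicate 4 of each of these groups is 1 of the 3 arrays closest to another group. The VOID levels of 4.12, 3.89, 3.94 and 4.40 overlap those of both fragments and of each fragment. WT lay between 3.86 and 4.15 and D361E between 3.56 and 4.24.

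Of the cytosolic Hsp90 pair, the inducible Hsp90aa1 (base 2788, chr12:111929248-111929307 on mm9) ran from 4.72 to 5.95. Its levels were 5.95, 5.51, 5.24 and 5.74 in VOID, 5.59, 5.39, 4.95 and 5.43 in WT, and 5.87, 5.83, 5.48 and 5.57 with both fragments. The single fragments had 5.33, 5.43, 5.10 and 5.37 (p1-361) and 5.62, 5.35, 4.72 and 5.92 (p363-549), and all of these groups overlap except p1-361 and both fragments, which lay apart for 2 of 7 genes (Dnajb1 and Hsp90aa1), against 7.34% of all genes. The probes of Hsp90aa1 and Hspd1 and 1 of the 3 of Hspe1 also list predicted transcripts, so signal from near-identical copies cannot be told apart from theirs. The constitutive Hsp90ab1 (base 2386, chr17:45704788-45704847 on mm9) had the narrowest range, from 7.02 to 7.45. Its p363-549 levels were 7.36, 7.31, 7.29 and 7.45, above the 4 of WT (7.05, 7.04, 7.15 and 7.20) and the 4 of VOID (7.22, 7.07, 7.18 and 7.20). The arrays with both fragments had 7.04, 7.03, 7.09 and 7.38, and those of D361E lay between 7.02 and 7.31, so both of these groups overlap p363-549. Those of p1-361 lay lower, between 7.12 and 7.19.

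Of the mitochondrial pair, Hspd1, the Hsp60 chaperonin (base 2253, chr1:55134697-55134756 on mm9), varied more than its partner. Its levels were 5.48, 4.97, 4.53 and 5.53 in VOID and 4.84, 4.67, 4.37 and 5.28 in WT. They were 4.65, 4.77, 4.22 and 5.42 with p1-361, 4.60, 4.93, 4.34 and 5.39 with p363-549, and 5.63, 5.76, 4.53 and 5.39 with both fragments. In each group replicate 3 was the lowest, and in each group but that of both fragments replicate 4 was the highest. Hspe1, the Hsp10 lid of the chaperonin, had means between 5.54 and 5.61 in all 6 groups at its brightest probe (base 632, chr1:55148026-55148085 on mm9), with SDs of 0.09 to 0.40 (n = 4). The lowest Hspe1 array, 5.01, was replicate 3 with both fragments, which was also the lowest array for Hsph1.

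**Figure D2:**
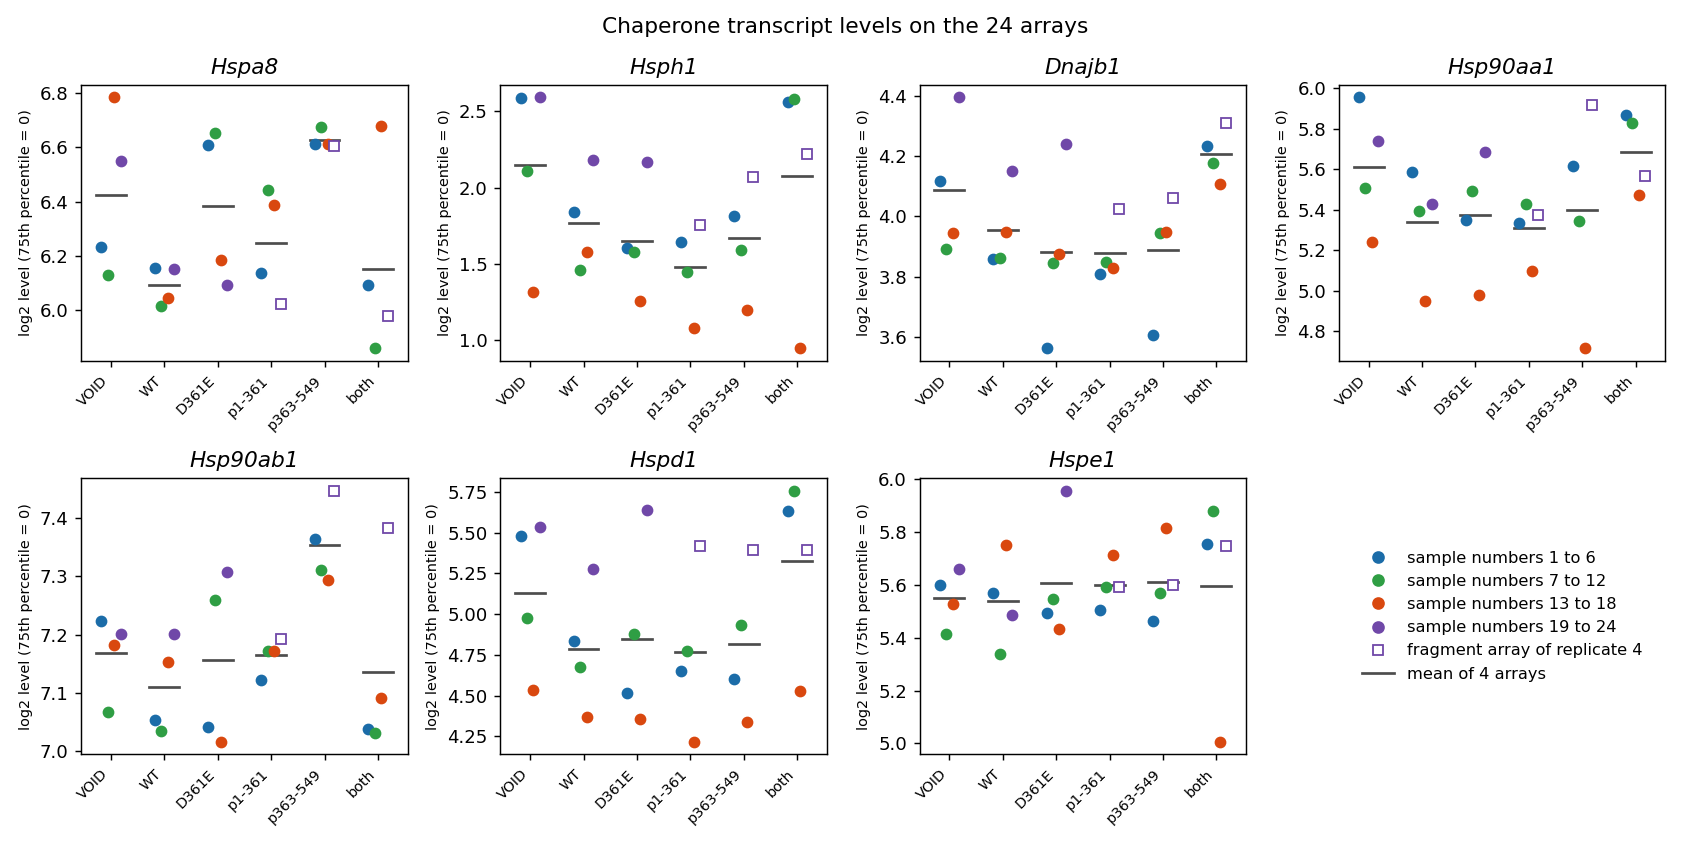
Level of each of the 7 detected genes at its brightest probe (y axis, log2 relative to the array's 75th percentile) on every array of the 6 groups (x axis); colours mark runs of 6 consecutive sample numbers, bars are means of 4 arrays and open squares the 3 fragment arrays closest to another group. Orange points (numbers 13 to 18) sit low for Hsph1, Hsp90aa1 and Hspd1 in each group, and Hspa8 and Hsp90ab1 lie above WT on all 4 p363-549 arrays.

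No chaperone gene passed limma's moderated F test for any difference among the 6 groups (0 of 7, while 2.84% of all 15058 genes passed at a Benjamini-Hochberg adjusted p under 0.05). The adjusted p was smallest for Hspa8 (0.402) and largest for Hspe1 (1.00). None of the 7 had an unadjusted p under 0.05 in this test. Without the 3 arrays the count stayed 0 of 7, while 9.86% of all genes passed.

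Against VOID, full-length p65 changed none of the 7 by this test (background 0.485%), and neither did D361E (0.657%), p1-361 (0.717%), p363-549 (0.584%) or both fragments (4.46%). None had an unadjusted p under 0.05 in these 5 comparisons, where 5.67% to 18.6% of all genes had one. The estimates for WT were all below 0 (5 of 7 after quantile normalization, with Hsp90ab1 at 0.07 and Hspe1 at 0.016), with a median of -0.27 against -0.04 over all genes, and ran from -0.38 (Hsph1) to -0.01 (Hspe1). For Hsph1 the WT difference was -0.38 ± 0.33 (log2, SE, n = 4 per group), with a 95% interval of -1.07 to 0.30. For Hsp90ab1 the WT difference was -0.06 ± 0.10, with a 95% interval of -0.27 to 0.16, the tightest of the 7. Estimates were below 0 for 6 of 7 genes in D361E (median -0.21) and in p1-361 (median -0.21), for 4 of 7 in p363-549 (median -0.20) and for 3 of 7 with both fragments (median 0.05). Without the 3 arrays 0 of 7 passed with p1-361 (2.67%), p363-549 (0.883%) or both fragments (9.58%). The 4 runs of 6 consecutive sample numbers were also fitted as a block, which was added after seeing the data. With this block 0 of 7 passed with WT (1.48%), D361E (1.79%), p1-361 (3%), p363-549 (1.81%) or both fragments (16.1%). Hsph1 then had an unadjusted p of 0.00334 with p1-361 (-0.67 ± 0.20, limma adjusted p = 0.0791), 0.0213 with D361E (-0.50 ± 0.20, adjusted 0.256) and 0.0254 with p363-549 (-0.48 ± 0.20, adjusted 0.265). Under 0.05 unadjusted were also Dnajb1 (0.0472) and Hsp90aa1 (0.0397) with p1-361 and Hsp90ab1 (0.0321) with p363-549. The Hsph1 difference from VOID was below 0 within all 4 runs in these 3 groups, from -0.98 to -0.06, and in 3 of 4 runs with WT and with both fragments. The last run holds the 3 fragment arrays closest to another group. Signs of the smaller estimates turned with the scaling: with both fragments 2 to 5 of the 7 were above 0 over 4 scalings and background corrections, and with D361E 1 to 3. The 5 comparisons share the VOID arrays, so their signs are not independent. The p363-549 arrays of 1 gene, Hsp90ab1, lay wholly above those of VOID (0.19 ± 0.10, limma adjusted p = 0.880), where 3.31% of all genes had groups that did not overlap.

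Against WT, the D361E mutant that cannot be cleaved differed in 0 of 7 genes (background 0.0797%), p1-361 in 0 of 7 (0.126%), p363-549 in 0 of 7 (0.146%) and both fragments in 0 of 7 (1.06%). Without the 3 arrays the counts for the fragments stayed 0 of 7 (p1-361, 0.697%; p363-549, 0.671%; both, 5.55%). Of the 7, 2 had an unadjusted p under 0.05 with p363-549, as did 5.19% of all genes, and 0 in the others, against 3.07% (D361E), 3.02% (p1-361) and 12.6% (both fragments) of all genes. With D361E the estimates ran from -0.11 (Hsph1) to 0.29 (Hspa8, 95% interval -0.07 to 0.66). With p363-549, Hspa8 was at 0.53 ± 0.18 above WT (unadjusted p = 0.00639, limma adjusted p = 0.735) and Hsp90ab1 at 0.24 ± 0.10 (unadjusted p = 0.0282, limma adjusted p = 0.895). These were the constitutive Hsp70 and Hsp90, and the scaled levels of the groups did not overlap for either, 2 of 7 genes against 3.75% of all genes tested. Processed signals before scaling did overlap. For Hspa8 they were 62135 to 71639 with p363-549 and 54460 to 72781 in WT. For Hsp90ab1 they were 99777 to 128500 with p363-549 and 102675 to 150517 in WT. Within the 4 runs of consecutive sample numbers the Hspa8 difference was 0.46, 0.66, 0.57 and 0.45 and the Hsp90ab1 difference 0.31, 0.28, 0.14 and 0.25. The last value of each gene is from p363-549 replicate 4, 1 of the 3 arrays closest to another group. Neither gene passed the test. At the other Hspa8 probes the difference was 0.33 ± 0.13 (base 1812) and 0.15 ± 0.27 (base 730). Without the 3 arrays it was 0.54 ± 0.19 for Hspa8 (adjusted p = 0.420) and 0.21 ± 0.10 for Hsp90ab1 (adjusted p = 0.601), and after quantile normalization the Hsp90ab1 difference was -0.06. Over 40 settings of the processing the Hspa8 difference ran from 0.29 to 0.59 and that of Hsp90ab1 from -0.06 to 0.36.

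With both fragments, all 7 estimates against WT were above 0, from 0.02 (Hsp90ab1) to 0.54 ± 0.33 (Hspd1, adjusted p = 0.487), with a median of 0.25 against 0.03 over all genes. Without the 3 arrays 6 of 7 were above 0 and Hsp90ab1 was at -0.06. The differences for Hspd1, Dnajb1 (0.25 ± 0.14, adjusted p = 0.463) and Hsp90aa1 (0.35 ± 0.22, adjusted p = 0.497) were above 0 in each of the 4 runs of sample numbers, the last of which holds these 3 arrays. With these runs as a block and without the 3 arrays, Dnajb1, Hsp90aa1 and Hspd1 passed (adjusted p = 0.0347, 0.0129 and 0.00981), where 31.7% of all genes passed. With the block alone 0 of 7 passed, against 7.38% of all genes.

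**Figure D3:**
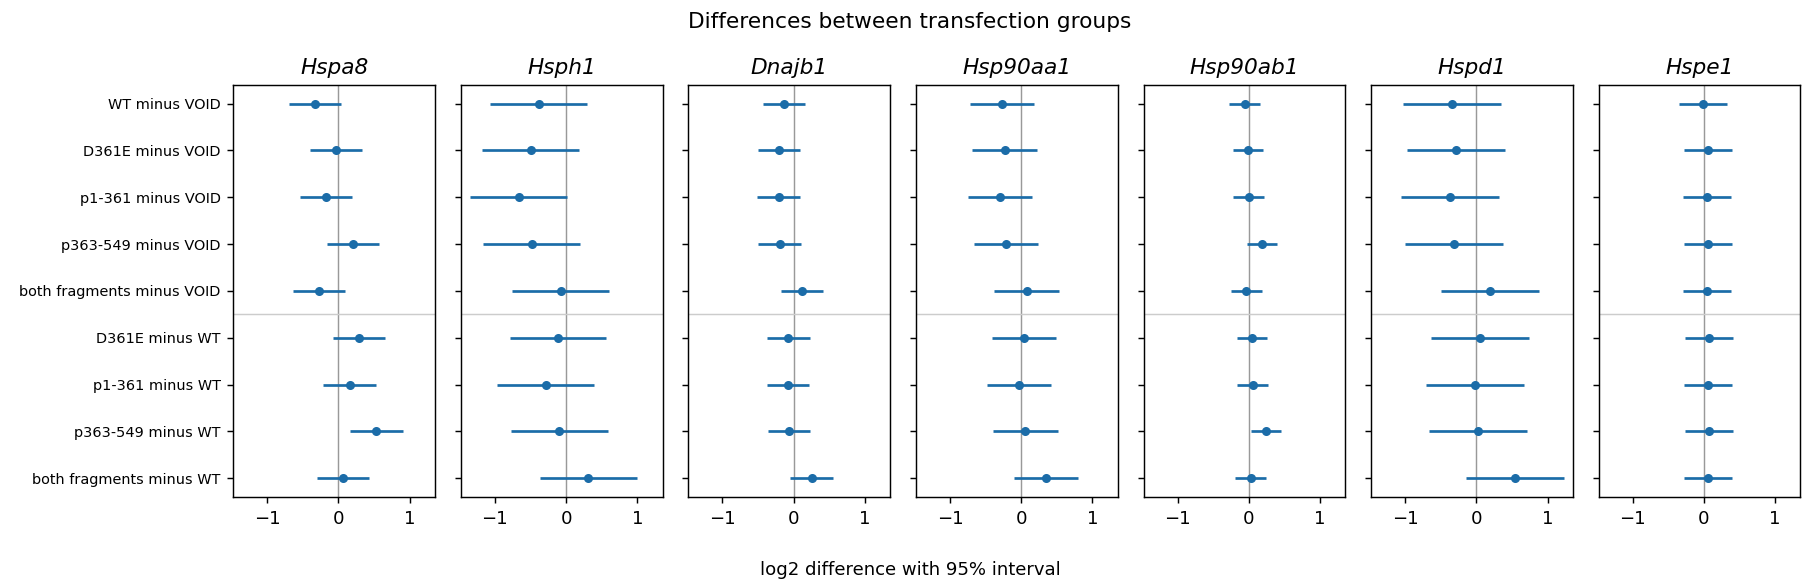
Log2 difference (points) with its 95% interval (lines) for the 7 detected genes in 9 comparisons between groups of 4 arrays. Only the p363-549 minus WT intervals of Hspa8 and Hsp90ab1 lie wholly above 0, and neither passed after adjustment.

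The fragments together were then set against the sum of each alone: the difference of both from VOID less the differences of p1-361 and p363-549 from VOID, where 0 means that the fragments add up on the log2 scale. No chaperone gene passed (0 of 7, background 0.213%), and 2 of 7 had an unadjusted p under 0.05, as did 14.3% of all genes. For Dnajb1 the separate differences summed to -0.41 ± 0.25 and both together gave 0.12 ± 0.14, a departure of 0.53 ± 0.20 (95% interval 0.11 to 0.95, unadjusted p = 0.0166, limma adjusted p = 0.295). For Hsph1 the sum was -1.15 ± 0.57 and both gave -0.07 ± 0.33, a departure of 1.07 ± 0.46 (95% interval 0.11 to 2.04, unadjusted p = 0.0303, limma adjusted p = 0.317). Its second probe (base 2728) gave 1.06 ± 0.50. The departure was 0.88 ± 0.47 for Hspd1 (adjusted p = 0.381) and 0.59 ± 0.31 for Hsp90aa1 (adjusted p = 0.376). It was below 0 for the 2 constitutive genes, at -0.30 ± 0.25 for Hspa8 and -0.22 ± 0.15 for Hsp90ab1, and -0.07 ± 0.23 for Hspe1. After quantile normalization these turned to 0.015 (Hspa8), 0.27 (Hsp90ab1) and 0.17 (Hspe1), so their direction rests on the scaling. The median over the 7 was 0.53 against -0.04 over all genes.

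Taken within each run of 6 sample numbers, the Dnajb1 departure was 0.94, 0.27, 0.28 and 0.62, above 0 in each. That of Hspd1 was 1.86, 1.03, 0.51 and 0.12 and that of Hsp90aa1 0.87, 0.56, 0.90 and 0.02, also above 0 in each. For Hsph1 it was 1.68, 1.65, -0.02 and 0.98. The last value of each gene rests on the 3 fragment arrays that were closest to another group. The block of these runs was added after seeing the data. With it, Dnajb1 (limma adjusted p = 0.0413), Hsph1 (0.0410) and Hspd1 (0.0493) passed and Hsp90aa1 did not (0.0649). This is 3 of 7 genes against 5.51% of all genes, 335 of which were above the sum and 494 below it. With the block, 16 fits left out 1 array of VOID or of a fragment group. Dnajb1 and Hsph1 passed in 5 of them (adjusted p of 0.00789 to 0.103 and 0.00815 to 0.103), which were those without VOID replicate 3, p1-361 replicate 4, p363-549 replicate 4 or replicate 3 or 4 of both fragments, and Hspd1 passed in 4 of these (0.00418 to 0.123). Leaving out any of the other arrays ended all the calls.

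Without the 3 fragment arrays that were closest to another group, the departures were 0.60 ± 0.23 for Dnajb1 (adjusted p = 0.0926), 1.25 ± 0.54 for Hsph1 (0.131), 1.27 ± 0.50 for Hspd1 (0.103) and 0.82 ± 0.33 for Hsp90aa1 (0.109). None of the 7 passed, 4 of them had an unadjusted p under 0.05, and 10.6% of all genes passed. With the block as well, all 4 passed (adjusted p = 0.0216, 0.0198, 0.00700 and 0.00477), where 32% of all genes passed. The 3 arrays were chosen for their values.

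**Figure D4:**
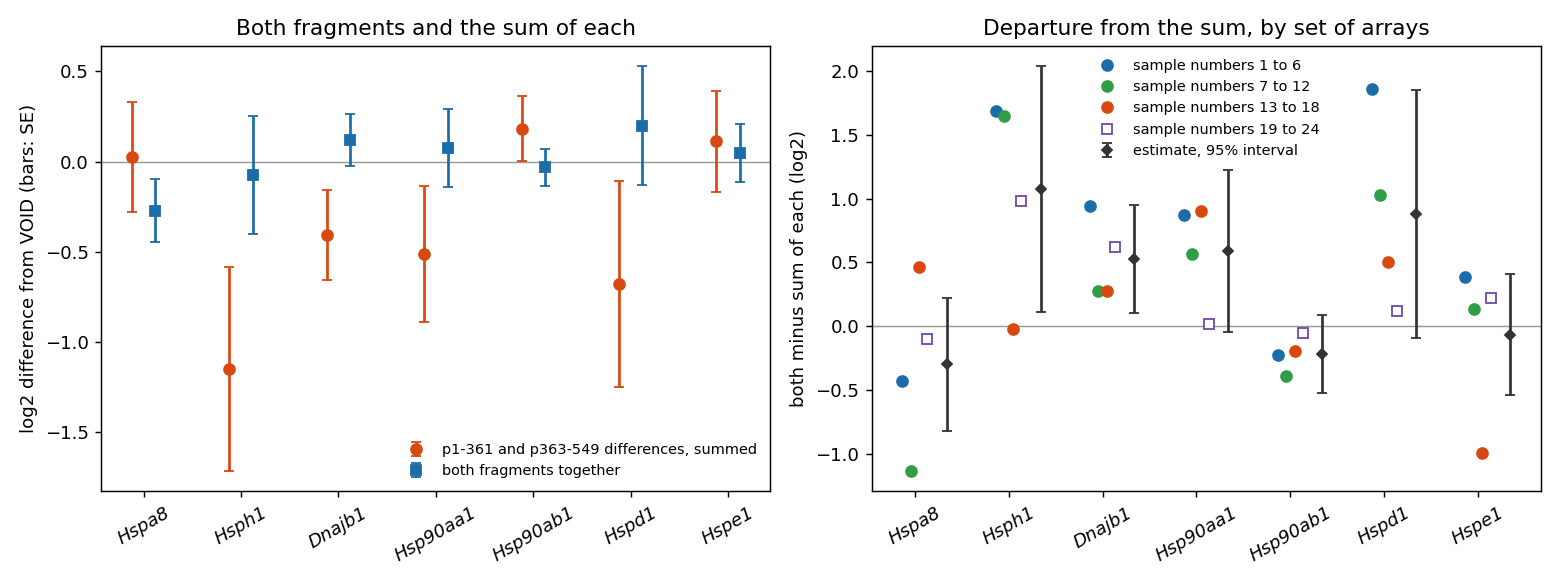
Left, the log2 difference from VOID of both fragments together (squares) and the summed differences of each fragment (circles), with SE, for the 7 detected genes. Right, the difference between the 2 in each run of sample numbers (open squares: the run with the 3 fragment arrays closest to another group) and its estimate with the 95% interval; the Dnajb1 points of 0.27 to 0.94 all lie above 0.

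The runs of consecutive sample numbers held a larger share of the variation of Hspd1, Hsph1 and Hsp90aa1 than the transfected plasmids did. The labels do not call the runs batches, and each holds 1 array of every group. With the groups in the model, 4 of 7 chaperone genes differed among the 4 runs in limma's F test (Hspd1, adjusted p = 0.000113; Hsph1, 0.000513; Hsp90aa1, 0.00116; Dnajb1, 0.00790), as did 58.6% of all genes. For Hspd1 the runs held 61.8% of the sum of squares and the groups 19.5%, and for Hsph1 they held 53.2% and 24.2%. Over all genes the medians were 35.9% and 23.6%. Arrays numbered 13 to 18 were low, by -0.56 for Hspd1, -0.57 for Hsph1 and -0.38 for Hsp90aa1 on average, and arrays 19 to 24 were high, by 0.50, 0.36 and 0.17. The constitutive Hspa8 (adjusted p = 0.544) and Hsp90ab1 (0.145) and the chaperonin lid Hspe1 (0.777) did not pass. At the Hspa8 probe nearest the 5' end, base 730, arrays 1 to 6 deviated by -0.47 on average and the runs differed (adjusted p = 0.000815), though 1 of these 6, with both fragments, was at 5.05 against its group's mean of 4.97, while the probes from bases 1812 and 2044 did not pass in the same fit over all probes (0.601 and 0.540). The part of RNA quality or processing in these shifts was not tested.

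**Figure D5:**
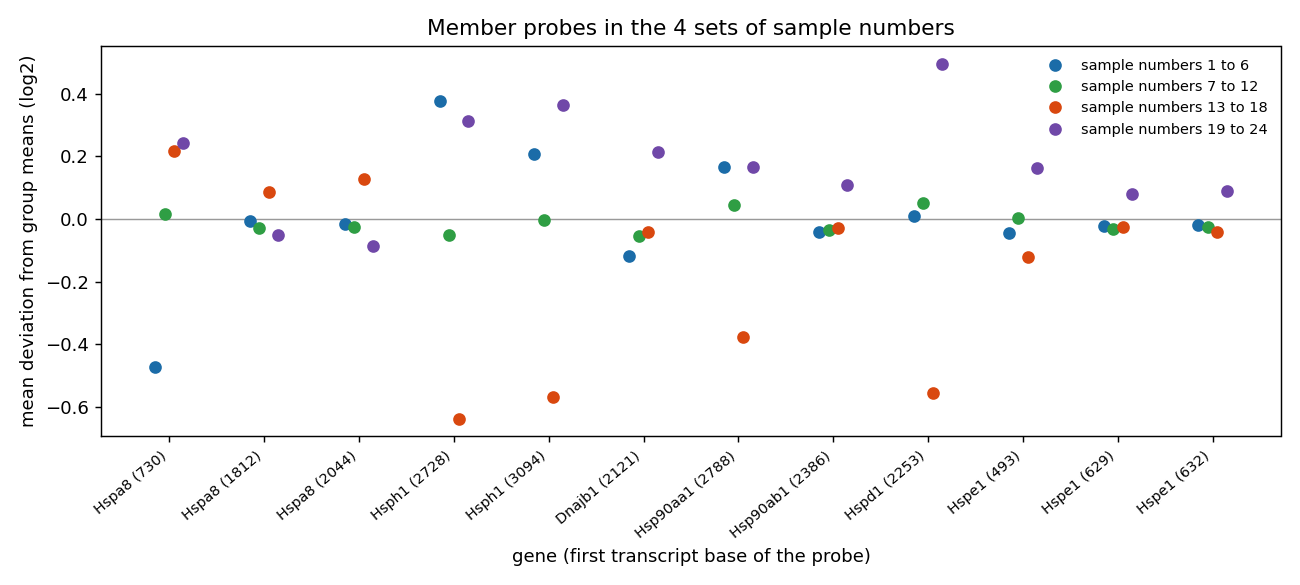
Mean deviation from the group means (y axis, log2) of the 12 detected probes in each run of 6 consecutive sample numbers (colours), with the probe's first transcript base in brackets. Numbers 13 to 18 are low at both Hsph1 probes, Hsp90aa1 and Hspd1, and numbers 1 to 6 are low on average at the Hspa8 probe from base 730 alone of its 3 probes.

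Pairs of genes were then compared over the 24 arrays, which share these runs. The permutations shuffled all 24 arrays freely, so their p-values do not allow for the runs or the groups. The largest Pearson r of the 21 pairs was that of Hsph1 and Hspd1, at 0.89 (Spearman's rho 0.86; permutation p = 1e-05 for r, the smallest that the permutations can give, and 0.000105 after Benjamini-Hochberg adjustment over the 21 pairs). Without the 2 arrays farthest from the median it was 0.88, and with group and run means removed 0.75. Within the runs of 6 arrays it was 0.98, 0.92, -0.07 and 0.29, so the relation did not hold in each. Hsp90aa1 and Hspd1 had an r of 0.80 (rho 0.80), and 0.90, 0.93, 0.63 and 0.38 within the runs, with 0.42 once group and run means were removed. Hsph1 and Hsp90aa1 had 0.77 (rho 0.78), with 0.96, 0.90, -0.49 and 0.43 within the runs and 0.16 with those means removed. Dnajb1 and Hspd1 had 0.74 (rho 0.69), with 0.97, 0.97, 0.78 and 0.44 within the runs and 0.73 with those means removed. Dnajb1 and Hsph1 had 0.60 (rho 0.58, permutation p = 0.0021 for r, adjusted 0.00882). Within the runs this pair had 0.91, 0.86, -0.29 and 0.89, and 0.55 with those means removed. Dnajb1 and Hsp90aa1 had 0.43 (rho 0.48, permutation p = 0.0328 for r, adjusted 0.0861), and 0.20 with the means removed. Hsph1 and Hspe1 had 0.45 (rho 0.36, permutation p = 0.0253 for r, adjusted 0.0861), and 0.76 with the means removed. Hspd1 and Hspe1, whose promoter windows overlap and share the 3-unit run shown above, had an r of 0.42 (rho 0.39, permutation p = 0.0407, adjusted 0.0949). This pair had -0.67 to 0.91 within the runs, and 0.58 with the means removed. Hspa8 and Hsph1 went in opposite directions, with an r of -0.44 (rho -0.46, permutation p = 0.0309 for r, adjusted 0.0861). Within the runs they had -0.48, -0.65, -0.57 and 0.46, and -0.61 with the means removed. The r of Hspa8 was also below 0 with Hspd1 (-0.41), Hspe1 (-0.33), Dnajb1 (-0.32) and Hsp90aa1 (-0.15), and above 0 with Hsp90ab1 (0.36).

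The other genes of the chaperone network were read from lists. Of 3 tested heat shock factor genes and their binding protein, 20 other genes that Hsf1 can induce, 19 Hsp90 cochaperones, 17 mitochondrial chaperones and proteases, 14 chaperonin and prefoldin subunits, 19 chaperones of the endoplasmic reticulum and 14 genes of other stress responses, 0 passed in any of the 10 comparisons. With both fragments against VOID, the comparison with most calls over all genes, 0 of the 20 genes that Hsf1 can induce and 5 of the 19 Hsp90 cochaperones had an unadjusted p under 0.05, as did 18.6% of all genes. Of 26 Hsp70 cochaperones and exchange factors 1 rose in that comparison, where 4.46% of all genes were called. It was Bag6, which guards proteins bound for membranes, by 0.40 ± 0.11 with both fragments against VOID (limma adjusted p = 0.0300). In the additivity comparison the list medians were 0.21 for the genes that Hsf1 can induce, 0.25 for the Hsp90 cochaperones, 0.20 for the Hsp70 cochaperones and -0.39 for the other stress responses, against -0.04 over all genes. In these larger lists, between 9 of 14 (chaperonin and prefoldin subunits) and 12 of 14 (other stress responses) differed among the runs of sample numbers. The share over all genes was 58.6%, and 0 of 7 NF-kB feedback genes differed. By contrast with the chaperones, 4 of 7 feedback genes of NF-kB rose against VOID in WT (0.485% of all genes called), in D361E (0.657%) and with both fragments (4.46%). With p363-549 alone 1 of 7 rose (0.584%), and with p1-361 alone 0 of 7 passed (0.717%). Tnfaip3, a ubiquitin-editing brake on NF-kB, was higher by 2.34 ± 0.27 in WT (adjusted p = 2.4e-05).

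The genes whose pattern over the 24 arrays was most like the mean of the 7 chaperone genes, each centred on its own mean, were 5 unnamed transcripts. They were AV310571 (Pearson r 0.95), A_55_P2078173 (0.93), NAP102295-1 (0.93), NAP097432-001 (0.93) and A_55_P2078516 (0.93). All 5 differed among the runs of sample numbers (limma adjusted p of 0.000124 to 0.00372), as did 58.6% of all genes. None passed the F test among the groups, which 2.84% of all genes passed. They were picked for following the chaperones' mean, and 4 of the 7 chaperone genes differed among the runs, so this adds no separate evidence.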

How the data were processed

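Total RNA of 24 samples was labelled with Cy3 and hybridised to 1-colour Agilent arrays. Per the submitters' processing notes, scans were read with Agilent Feature Extraction 10.7.3.1. The deposited values are processed signal intensity on a linear scale, background-subtracted per the file headers and not normalized between arrays. The series-wide values the authors deposited are the same intensity (largest difference 0). Between 185 and 312 spots per array marked as outliers were left out, and no spot was saturated.

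Here log2 intensity minus each array's 75th percentile was fitted with limma 3.58.1 (R 4.3.3, statmod 1.5.0), with 1 mean per group over all 24 arrays (18 residual and 3.06 prior degrees of freedom). Probes well above background on all 4 arrays of a group (19522) were kept, and the brightest stood for each of 15058 genes. Tests were 2-sided, with Benjamini-Hochberg adjustment over all genes and a threshold of 0.05. RefSeq accessions matched 69.8% of probes. The fit was tested on simulated data, in WT against VOID, among 15058 genes of which 200 were changed, with 5 false calls. Recovered were 9 of 67 genes changed by 0.5 (log2), 38 of 67 changed by 1 and 58 of 66 changed by 2.

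Named genes were the 10 chaperones, up to 4 genes that passed from each list, and the 5 genes most like the chaperones' mean. The members and lists were chosen with earlier results of these data known. Replicate numbers follow sample order, and slides and runs of 6 sample numbers are not called batches by the labels. Alternatives were other background correction, scaling, filters, probes, blocks, priors and weights, and left-out arrays.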

Additional observations from a re-analysis of the deposited data

Results flagged for a closer look

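Of 72 groups of 4 arrays, one for each detected probe and plasmid, 4 held an array far from the other arrays of its group by Dixon's test, which flags about 1 in 20 groups by chance. Hspa8 at its brightest probe was 6.67 on p363-549 replicate 2, where the other arrays of that group lay between 6.60 and 6.61, the tightest group for this gene. Hsp90ab1 was 7.38 on replicate 4 of both fragments, above the 7.03 to 7.09 of the others, and this is 1 of the 3 arrays closest to another group. Hspe1 was 5.42 on D361E replicate 4 at the probe from base 629, above 5.03 to 5.10. At the probe from base 632 it was 5.01 on replicate 3 of both fragments, below 5.75 to 5.88.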

How the results depend on the processing

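The count of chaperone genes that passed was 0 in all 10 comparisons and in the F test under 13 of 15 alternatives, and ranged from 0 to 0 over the 24 fits that left out 1 array. Array weights, which ran from 0.26 to 8.98, were an exception: they gave 5 genes in the F test (56.7% of all genes), 1 in D361E against VOID (8.57%), 1 in D361E against WT (13.1%), 2 in p363-549 against WT (7.29%), 5 with both fragments against WT (53.2%) and 4 for additivity (38.5%). The runs of sample numbers as a replicate block gave 3 for additivity (5.51% of all genes) and 0 elsewhere. This replicate block and the further fits with it were chosen after seeing the data. Without the 3 fragment arrays closest to another group the block gave 3 with both fragments against WT (31.7% of all genes) and 4 for additivity (32%). It also gave 2 in the F test, for which no share over all genes is given. For additivity the block gave 0 to 4 when 1 array was left out (2 without VOID replicate 3, 3 without p1-361 replicate 4 or replicate 3 of both fragments, 4 without p363-549 replicate 4 or replicate 4 of both fragments), and further 4 on quantile-normalized values, 3 when only detected probes set the percentile and 0 on normexp values. No share over all genes is given for these further block fits, so their counts cannot be read as particular to the chaperones. The Hsp90ab1 difference between p363-549 and WT was -0.060 after quantile normalization. The causes were not tested. No array was saturated, and Hspa1a, Hspa1b and Hspb1 are limited by the background.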
